A study of Rattus norvegicus with 30 samples.

Results

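The genes described here are 10 regulators of late spermatogenesis in the rat: Crem, Fhl5, Tbpl1, Brdt, Rfx2, Sox30, Mybl1, Taf7l, Tcfl5 and Papolb. They were chosen by name, and their Entrez Gene identifiers were matched to the rows of the deposited table. Of the 10, 8 had a row among the 17322 genes of the table, of which 17172 carried a RefSeq symbol. Sox30 and Tcfl5 had no row and were not analysed here. The 8 measured genes were Crem (Entrez 25620), Fhl5 (297954), Tbpl1 (689030), Brdt (305123), Rfx2 (301121), Mybl1 (297783), Taf7l (363493) and Papolb (304300).

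RNA came from testes of Wistar Han rats at 6 postnatal ages (8.5 dpp, 14.5 dpp, 24.5 dpp, 30.5 dpp, 36.5 dpp and 53.5 dpp, where dpp stands for days post partum; the sample titles write dpc for the same ages), and from explants of 8.5 dpp testes kept in culture at a gas-liquid interphase. Culture lasted 6 days (D6, matched to 14.5 dpp in vivo), 16 days (D16, matched to 24.5 dpp), 22 days (D22, matched to 30.5 dpp) or 28 days (D28, matched to 36.5 dpp). Each group had 3 libraries except the 14.5 dpp testes, which had 2, because the remaining library, marked as an outlier by the authors, was listed at 0 for every gene. Each cultured library pooled 12 explants, from which the necrotic centre had been removed, and the in vivo libraries came from different testes. No group carried a transgene or a mutation. The culture medium held serum replacement, retinol and vitamin E.

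CREM is an activator that binds cAMP response elements in round spermatids, where FHL5 (also called ACT) acts as its partner, and mice without CREM stop at the first steps of spermatid formation. TBPL1 and TAF7L are relatives of the general factors TBP and TAF7. BRDT is the testis member of the BET family of readers of acetylated histones, and RFX2 switches on genes of the sperm flagellum and acrosome. MYBL1 drives the genes of the pachytene stage, including those for pachytene piRNAs, and PAPOLB extends poly(A) tails of certain mRNAs in spermatids.

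Values are in FPKM (fragments scaled to transcript length and to mapped reads), as deposited by the authors, and levels of different genes are compared on this scale only. The table holds no read counts, and sequencing depth is therefore not known. From 12520 to 13563 genes per library had a value above 0, and the relative depth of a library, read from its lowest values, ranged from 0.818 to 1.49. In the comparisons, log2 differences are differences of group means of log2(FPKM + 1) with their standard error (SE), from limma. A gene was called when the limma p-value, adjusted over all tested genes, was at most 0.05 and the ratio of the group medians was at least 2. RNA was taken from whole tissue, so fewer cells of a type and less RNA per cell cannot be told apart in any of the values below.

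Crem was expressed at all ages, as read from 1 value per gene, which does not separate the activator from other products of the gene. Its level was 9.11, 8.88 and 10.1 FPKM in the 8.5 dpp testes, 6.19 and 6.80 FPKM at 14.5 dpp, and 12.9, 13.5 and 8.41 FPKM at 24.5 dpp. It was 25.8, 8.42 and 1.20 FPKM at 30.5 dpp, 13.8, 1.29 and 12.1 FPKM at 36.5 dpp, and 8.15, 15.3 and 0.754 FPKM at 53.5 dpp. From 30.5 dpp on, 1 testis of each age (replicates 3, 2 and 3) lay far below the other two, and the ranges of these 3 ages overlapped with each other and with those of 8.5, 14.5 and 24.5 dpp. In culture the values were 7.23, 6.53 and 6.42 FPKM at D6, 5.94, 4.56 and 4.57 FPKM at D16, 5.21, 4.90 and 4.29 FPKM at D22, and 4.54, 4.08 and 3.53 FPKM at D28. Cultured tissues were thus tightly grouped, with every D28 value below every value of the 8.5 and 14.5 dpp testes.

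CREM acts on the element TGACGTCA, and the internal promoter of Crem is a textbook example of a gene region that holds it. The RefSeq table of promoters (build GRCr8, 250 bases before to 50 bases after each start) had 11 windows for 9 of the 10 genes. Mybl1 had none. TGACGTCA, which reads the same on both strands, was searched in these windows, and so was its part TGACG on either strand, which overlaps it. Among all 33469 windows, 612 (1.83%) held TGACGTCA and 7097 (21.2%) held TGACG. Of the 3 starts listed for Crem, the window at chr17:58933816-58934115 (plus strand) held TGACG at positions -241 and -6 from the start and no TGACGTCA. The windows of the 2 further starts, chr17:58984547-58984846 and chr17:58985240-58985539 (plus strand), held TGACGTCA at position -56 and at positions -35 and 39. They are shown with the window of Tnp1, a spermatid gene known to depend on CREM, at chr9:82044229-82044528 (minus strand), which held TGACGTCA at -113. Capitals mark TGACGTCA, and positions are those of its first base.
Crem, window at 58984547: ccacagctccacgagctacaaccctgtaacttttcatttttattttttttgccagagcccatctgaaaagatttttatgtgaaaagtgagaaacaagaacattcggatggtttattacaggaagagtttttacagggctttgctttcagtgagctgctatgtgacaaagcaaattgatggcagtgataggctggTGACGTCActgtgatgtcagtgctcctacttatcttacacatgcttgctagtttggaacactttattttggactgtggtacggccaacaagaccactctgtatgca
Crem, window at 58985240: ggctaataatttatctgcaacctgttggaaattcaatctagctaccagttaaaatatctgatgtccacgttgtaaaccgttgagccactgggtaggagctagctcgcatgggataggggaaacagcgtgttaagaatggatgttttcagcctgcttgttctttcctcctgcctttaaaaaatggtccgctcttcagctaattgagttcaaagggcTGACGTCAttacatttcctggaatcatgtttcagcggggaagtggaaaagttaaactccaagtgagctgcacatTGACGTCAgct
Tnp1, window at 82044229: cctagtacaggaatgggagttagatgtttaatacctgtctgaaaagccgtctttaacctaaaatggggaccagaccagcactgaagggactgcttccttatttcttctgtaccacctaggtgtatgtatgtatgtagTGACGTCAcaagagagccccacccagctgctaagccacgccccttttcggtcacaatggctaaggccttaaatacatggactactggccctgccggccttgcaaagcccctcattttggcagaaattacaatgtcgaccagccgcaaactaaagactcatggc
None of the windows of Fhl5, Tbpl1, Brdt, Rfx2, Sox30, Taf7l, Tcfl5 or Papolb held TGACG, which says only that these letters are not in those windows. The deposited values are 1 per gene, so the use of each Crem start was not measured.

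Fhl5, the partner of CREM in spermatids, was the last of the set to reach 50% of its highest level. It was 0.497, 0.534 and 0.372 FPKM at 8.5 dpp, 0.302 FPKM and listed at 0 in the 2 testes of 14.5 dpp, and listed at 0 in all 3 testes of 24.5 dpp. The values were 2.27, 25.0 and 4.74 FPKM at 30.5 dpp, 18.8, 18.4 and 16.2 FPKM at 36.5 dpp, and 31.8, 40.7 and 101 FPKM at 53.5 dpp. The 36.5 dpp testes lay close together, whereas replicate 2 at 30.5 dpp and replicate 3 at 53.5 dpp lay far above their groups, and the 53.5 dpp testes did not overlap with any younger age. In culture Fhl5 was listed at 0 in 1 of the D6 libraries, was 0.168 and 0.199 FPKM in the other two, and was listed at 0 in all 9 libraries of D16, D22 and D28. A listing at 0 need not mean absence in this table, because widely expressed genes such as Brd2 and Gtf2a2 were listed at 0 in every library, and without read counts the limit of detection is not known.

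Tbpl1, which codes for a TBP-like factor that directs RNA polymerase II to testis promoters, was already well expressed in the youngest testes. It was 29.8, 28.9 and 24.0 FPKM at 8.5 dpp, 36.9 and 40.8 FPKM at 14.5 dpp, and 90.9, 129 and 93.3 FPKM at 24.5 dpp. It was 265, 257 and 274 FPKM at 30.5 dpp, 216, 190 and 215 FPKM at 36.5 dpp, and 222, 154 and 164 FPKM at 53.5 dpp. Each of the first 4 ages lay above the one before it with no overlap, and the 36.5 and 53.5 dpp testes overlapped with each other and lay below those of 30.5 dpp. The cultured tissues had 25.0, 29.1 and 29.1 FPKM at D6, 29.4, 23.5 and 25.3 FPKM at D16, 25.1, 25.3 and 18.5 FPKM at D22, and 20.9, 24.7 and 23.6 FPKM at D28. All cultured libraries lay below every 14.5 dpp testis.

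Taf7l, an X-linked relative of the TFIID subunit gene Taf7, had the earliest peak. The values were 10.6, 11.0 and 11.2 FPKM at 8.5 dpp, 31.7 and 69.3 FPKM at 14.5 dpp, and 85.0, 88.2 and 130 FPKM at 24.5 dpp. They were 34.0, 25.5 and 30.5 FPKM at 30.5 dpp, 23.0, 23.9 and 26.4 FPKM at 36.5 dpp, and 14.2, 15.1 and 14.4 FPKM at 53.5 dpp. The 24.5 dpp testes lay above all others, and the 53.5 dpp testes lay between those of 8.5 dpp and those of 36.5 dpp. Cultured tissues had 35.8, 30.6 and 26.9 FPKM at D6, 33.0, 28.8 and 32.3 FPKM at D16, 37.9, 33.2 and 28.5 FPKM at D22, and 28.4, 30.0 and 30.7 FPKM at D28. These 12 values all lay above the 8.5 dpp testes and overlapped with those of 30.5 dpp.

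Brdt, which codes for a chromatin reader needed in meiosis and in the remodelling of spermatids, went from a trace to a high level between 14.5 and 24.5 dpp. Its level was 1.04, 0.632 and 0.748 FPKM at 8.5 dpp, 1.82 and 3.14 FPKM at 14.5 dpp, and 119, 121 and 64.6 FPKM at 24.5 dpp. The testes of 30.5 dpp had 151, 166 and 157 FPKM, those of 36.5 dpp 142, 164 and 169 FPKM, and those of 53.5 dpp 153, 174 and 163 FPKM. These last 3 ages overlapped. In culture Brdt was 0.959, 0.977 and 1.04 FPKM at D6, 0.759, 1.24 and 1.16 FPKM at D16, 1.57, 1.49 and 1.65 FPKM at D22, and 1.45, 1.66 and 2.22 FPKM at D28. The D22 and D28 tissues lay above the 8.5 dpp testes and did not reach the higher of the 14.5 dpp testes.

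Rfx2, the regulator of flagellar genes, followed a course close to that of Brdt. It was 0.747, 0.922 and 0.592 FPKM at 8.5 dpp, 1.54 and 2.24 FPKM at 14.5 dpp, and 49.6, 52.5 and 33.3 FPKM at 24.5 dpp. It was 110, 124 and 116 FPKM at 30.5 dpp, 122, 129 and 132 FPKM at 36.5 dpp, and 133, 111 and 110 FPKM at 53.5 dpp, with overlap among these 3 ages. The cultured tissues had 1.29, 1.01 and 1.39 FPKM at D6, 0.935, 0.923 and 0.895 FPKM at D16, 1.40, 0.904 and 1.03 FPKM at D22, and 1.10, 0.981 and 1.26 FPKM at D28. All 12 lay below both 14.5 dpp testes.

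Mybl1, the regulator of the pachytene program, reached a plateau at 24.5 and 30.5 dpp and was lower in the oldest testes. Its level was 3.27, 3.47 and 3.03 FPKM at 8.5 dpp, 4.46 and 5.17 FPKM at 14.5 dpp, and 28.5, 31.9 and 25.1 FPKM at 24.5 dpp. It was 29.7, 29.7 and 29.8 FPKM at 30.5 dpp, 19.0, 19.6 and 22.2 FPKM at 36.5 dpp, and 16.1, 13.6 and 11.6 FPKM at 53.5 dpp. The 30.5 dpp values lay within the range of 24.5 dpp, and each later age lay below the one before it with no overlap. Cultured tissues had 4.08, 3.60 and 2.41 FPKM at D6, 4.99, 4.45 and 4.45 FPKM at D16, 4.21, 5.06 and 3.89 FPKM at D22, and 2.48, 4.49 and 3.25 FPKM at D28, within or near the range of the 8.5 and 14.5 dpp testes.

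Papolb, which codes for the testis poly(A) polymerase, reached the highest level of the set. It was 1.83, 1.99 and 2.24 FPKM at 8.5 dpp, 4.33 and 5.32 FPKM at 14.5 dpp, and 47.1, 57.5 and 38.4 FPKM at 24.5 dpp. It was 259, 334 and 304 FPKM at 30.5 dpp, 363, 372 and 414 FPKM at 36.5 dpp, and 384, 368 and 388 FPKM at 53.5 dpp. Only the last 2 ages overlapped. In culture the values were 2.47, 3.29 and 2.19 FPKM at D6, 2.09, 2.52 and 2.31 FPKM at D16, 2.62, 2.09 and 2.96 FPKM at D22, and 2.20, 2.75 and 2.59 FPKM at D28, all below both 14.5 dpp testes.

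**Figure D1:**
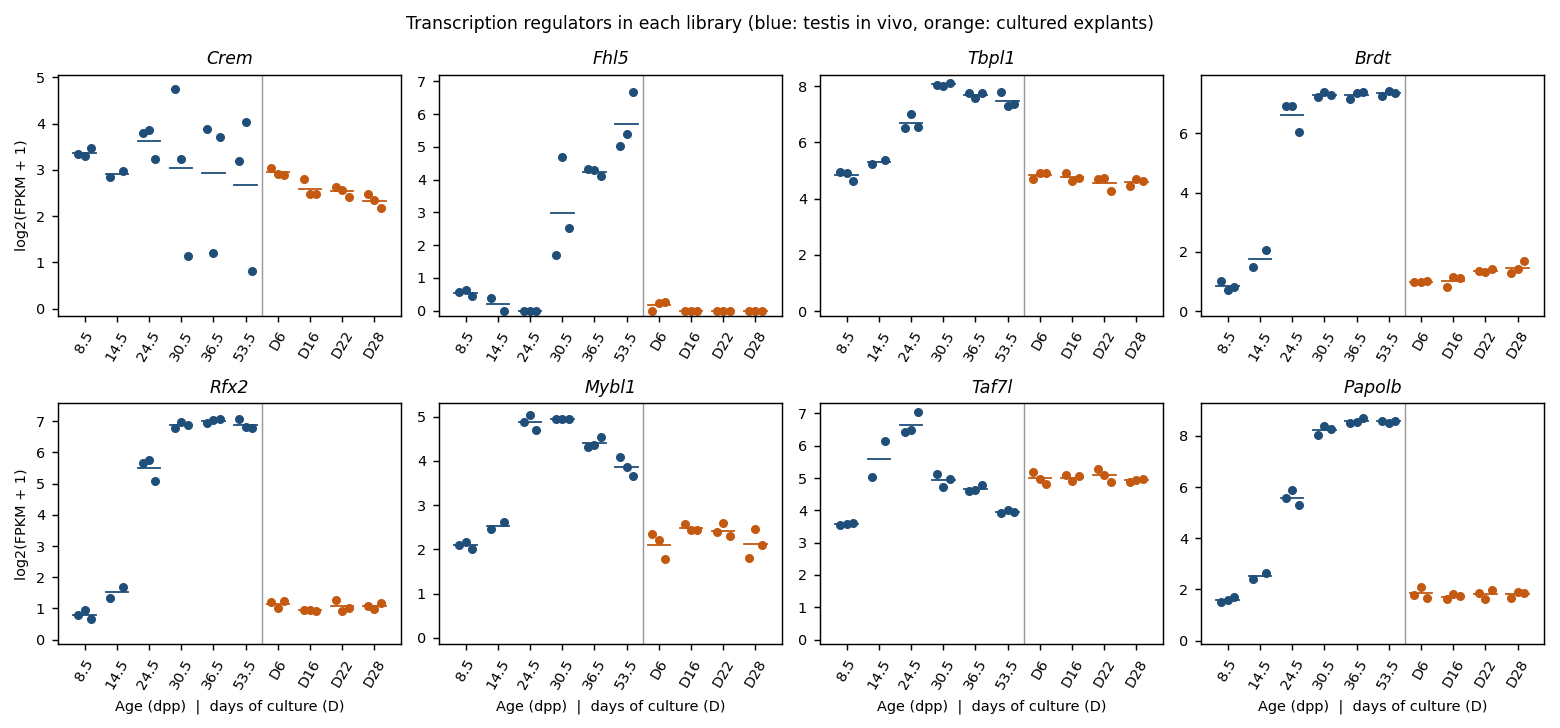
Level of each of the 8 regulators in every library, as log2(FPKM + 1), against in vivo age in dpp (blue) and days of culture (orange). In Tbpl1, Brdt, Rfx2, Mybl1, Papolb and Fhl5 the 12 cultured libraries lie below all testes of 30.5 to 53.5 dpp, and in Crem and Taf7l they do not.

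The regulators reached their highest levels at different ages in vivo. Taf7l had its highest group mean at 24.5 dpp (101 ± 25.0 FPKM, SD, n = 3) and Mybl1 at 30.5 dpp (29.7 ± 0.0615 FPKM), although Mybl1 was at 96.0% of that level at 24.5 dpp. Brdt was at 62.3% of its highest mean at 24.5 dpp, Tbpl1 at 39.4%, Rfx2 at 35.3% and Papolb at 12.4%. At 30.5 dpp Brdt was at 96.8%, Rfx2 at 91.2%, Papolb at 78.1% and Tbpl1 at its highest (265 ± 8.76 FPKM, SD, n = 3). Fhl5 was at 18.5% at 30.5 dpp and at 30.8% at 36.5 dpp, and Taf7l had reached 49.99% at 14.5 dpp. Leaving out each library in turn, an alternative chosen after seeing the data, moved these shares: Fhl5 ranged from 6.06% to 29.5% at 30.5 dpp and from 25.1% to 49.1% at 36.5 dpp, and Taf7l from 31.4% to 68.6% at 14.5 dpp. The first age with at least 50% of the highest mean was 24.5 dpp for Taf7l, Mybl1 and Brdt, 30.5 dpp for Tbpl1, Rfx2 and Papolb, and 53.5 dpp for Fhl5. Only that of Taf7l depended on single libraries, as it was 14.5 dpp in some of these alternatives. With 25% in place of 50%, the first age was earlier for Taf7l (14.5 dpp), Tbpl1 and Rfx2 (24.5 dpp) and Fhl5 (36.5 dpp). Crem was at 79.2% of its highest mean at 8.5 dpp (54.6% to 81.1% with 1 library left out), so it was not a late gene by level, and Taf7l was at 14.4% of its highest at 53.5 dpp.

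**Figure D2:**
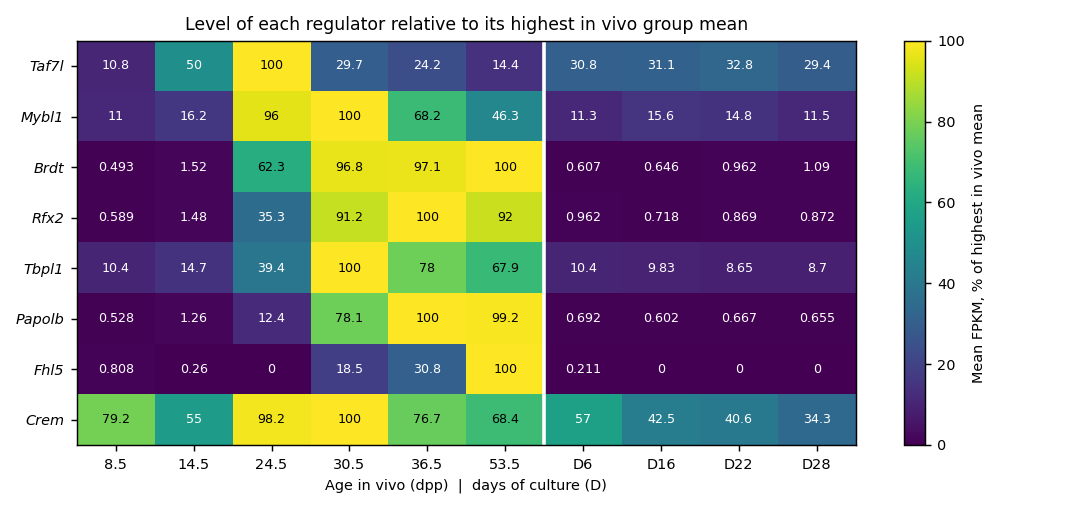
Group mean FPKM of each regulator as a percentage of its highest in vivo group mean, by in vivo age in dpp (left of the white line) and days of culture (right). Colour gives the percentage, which passes 50% first at 24.5 dpp for Taf7l, Mybl1 and Brdt, after Crem at 8.5 dpp, and stays under 2% in culture for Brdt, Rfx2, Papolb and Fhl5.

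By level, at 36.5 dpp Papolb (383 ± 27.4 FPKM) was followed by Tbpl1 (207 ± 14.3 FPKM), Brdt (159 ± 14.3 FPKM) and Rfx2 (128 ± 5.04 FPKM; SD, n = 3). Taf7l (24.4 ± 1.75 FPKM), Mybl1 (20.3 ± 1.66 FPKM), Fhl5 (17.8 ± 1.41 FPKM) and Crem (9.06 ± 6.78 FPKM) came after these. None of the neighbours in this order overlapped in their ranges at 36.5 dpp, whereas at 53.5 dpp Tbpl1 (154 to 222 FPKM) overlapped with Brdt (153 to 174 FPKM), and Taf7l (14.2 to 15.1 FPKM), Mybl1 (11.6 to 16.1 FPKM) and Crem (0.754 to 15.3 FPKM) overlapped with each other. In D28 tissue the order was different: Taf7l (29.7 ± 1.18 FPKM) and Tbpl1 (23.1 ± 1.95 FPKM) led, followed by Crem (4.05 ± 0.503 FPKM) and Mybl1 (3.41 ± 1.02 FPKM), whose ranges overlapped. Papolb (2.51 ± 0.283 FPKM), Brdt (1.78 ± 0.397 FPKM) and Rfx2 (1.12 ± 0.143 FPKM) had lower means, and Fhl5 was listed at 0. The range of Papolb (2.20 to 2.75 FPKM) overlapped with those of Mybl1 (2.48 to 4.49 FPKM) and Brdt (1.45 to 2.22 FPKM).

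As a description over the 10 groups, group means of log2(FPKM + 1) were correlated between pairs of regulators, with ages and cultures sharing the same file and scaling. Pearson's r was 0.996 between Brdt and Rfx2, 0.992 between Rfx2 and Papolb, 0.975 between Tbpl1 and Brdt and 0.954 between Brdt and Mybl1. It was -0.05 between Crem and Fhl5 and -0.46 between Fhl5 and Taf7l. Among 10000 other genes with a group median of at least 5 FPKM, the most similar to Brdt were Ybx2 (r = 0.999), Cox8c (0.999) and C10h5orf47 (0.999). To Rfx2 they were Fam227b, C2cd6 and Ppp3r2 (r = 0.9996 each), and to Papolb Rdh8, Zfp438 and Ubxn10 (0.999 each). For Tbpl1 they were Kcnj9, Cfap97 and Sh3glb1 (0.997 each), for Fhl5 Ppef1 (0.998), Crb1 and Clxn (0.997 each), and for Mybl1 Gmcl1, Zfp949 and Trim39 (0.996 each). Many genes shared these courses: r was at least 0.99 for 311 genes with Rfx2, 298 with Papolb, 156 with Brdt, 84 with Fhl5, 50 with Tbpl1 and 9 with Mybl1. No gene reached 0.99 with Taf7l or Crem, whose most similar genes were Supt20hl1 (0.981), Ugt8 (0.975) and Ccnb1ip1 (0.972) for Taf7l, and Rwdd1 (0.971), Sub1 (0.949) and Gmnn (0.947) for Crem.

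From 8.5 to 14.5 dpp, when the germ cells enter meiosis, Taf7l made the largest move of the set. It rose by 2.01 on the log2 scale (SE 0.32, adjusted p = 0.00807), with means of 10.9 ± 0.323 FPKM (SD, n = 3) and 50.5 ± 26.6 FPKM (n = 2). Papolb rose by 0.95 (SE 0.12, adjusted p = 0.00555), Brdt by 0.93 (SE 0.20, adjusted p = 0.0171) and Rfx2 by 0.71 (SE 0.15, adjusted p = 0.0165), all from traces to a few FPKM. Of 7 genes tested, 4 were called higher and 0 lower (limma, with 1 lower at an unadjusted p under 0.05), against 8.83% of all tested genes called higher and 6.89% called lower. Fhl5 was under the filter on low values, and Crem, Tbpl1 and Mybl1 differed by less than the fold threshold (-0.47, 0.49 and 0.45). The median log2 difference was 0.71 over the 7 regulators and 0.07 over all genes. The calls of Brdt and Rfx2 were close to the threshold. Leaving out 8.5 dpp replicate 3 gave an adjusted p of 0.0594 for Brdt and 0.0541 for Rfx2, leaving 2 genes called. Brdt also missed without 8.5 dpp replicate 2 (adjusted p = 0.0572), and Rfx2 without 8.5 dpp replicate 1 (0.055) or 14.5 dpp replicate 2 (0.0539). The 14.5 dpp replicate 2 also had the higher sum of the early meiotic markers (73.9 FPKM, against 14.7 FPKM in replicate 1). It was higher as well in the elongating spermatid markers (34.1 against 4.36 FPKM), whose cells are not present at this age, and in the genes that depend on CREM and FHL5 (36.0 against 5.51 FPKM), a list that holds all 6 of those markers. The part of these in the values was not tested.

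Between 14.5 and 24.5 dpp, when the first spermatocytes reach the pachytene stage, most of the set rose steeply. Brdt went from 2.48 ± 0.930 FPKM (SD, n = 2) to 102 ± 32.1 FPKM (n = 3), 41.0 times as high on average. Rfx2 was 23.9 times as high (1.89 ± 0.495 and 45.1 ± 10.4 FPKM), Papolb 9.87 times (4.83 ± 0.700 and 47.7 ± 9.56 FPKM) and Mybl1 5.93 times (4.81 ± 0.501 and 28.5 ± 3.38 FPKM). Tbpl1 was 2.69 times as high. In limma's test the log2 differences were 4.85 for Brdt (SE 0.33, adjusted p = 0.000351), 3.98 for Rfx2 (SE 0.24, adjusted p = 0.00028) and 3.05 for Papolb (SE 0.21, adjusted p = 0.000351). They were 2.34 for Mybl1 (SE 0.16, adjusted p = 0.000358) and 1.39 for Tbpl1 (SE 0.20, adjusted p = 0.00314). These 5 of 7 tested genes were called higher and 0 lower (0 lower also at an unadjusted p under 0.05), against 14.6% of all tested genes called higher and 21.1% called lower. Crem (0.72, adjusted p = 0.0351) and Taf7l (1.06, adjusted p = 0.0481) missed the ratio of medians. The median log2 difference was 2.34 over the 7 regulators and -0.18 over all genes.

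The 24.5 dpp testes were not alike. Replicate 3 had the lowest levels of Crem, Brdt, Rfx2, Mybl1 and Papolb and the highest of Taf7l. Its sum of pachytene markers was 1137 FPKM, against 1684 and 1851 FPKM in replicates 1 and 2, and its sum of round spermatid markers was 30.5 FPKM, against 40.0 and 45.3 FPKM. The early meiotic markers summed to 746, 720 and 728 FPKM in replicates 1, 2 and 3, the Sertoli cell markers to 1817, 1700 and 2589 FPKM, and the Leydig cell markers to 595, 357 and 66.3 FPKM. Without replicate 3 the log2 difference of Brdt from 14.5 dpp was 5.15, and the 5 calls of that step were made in each fit that left out 1 library, with 6 genes called without 14.5 dpp replicate 2 (Taf7l added) or without 24.5 dpp replicate 3 (Crem added). The part of these markers in the levels was not tested.

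From 24.5 to 30.5 dpp, when round spermatids appear, the set split. Papolb went from 47.7 ± 9.56 to 299 ± 37.7 FPKM, Rfx2 from 45.1 ± 10.4 to 117 ± 6.80 FPKM and Tbpl1 from 104 ± 21.5 to 265 ± 8.76 FPKM (SD, n = 3). Fhl5 was listed at 0 in all 24.5 dpp testes and above 0 in all those of 30.5 dpp. Taf7l went the other way, from 101 ± 25.0 to 30.0 ± 4.27 FPKM. The log2 differences were 2.64 for Papolb (SE 0.18, adjusted p = 9.64e-05), 1.38 for Rfx2 (SE 0.19, adjusted p = 0.000989), 1.36 for Tbpl1 (SE 0.16, adjusted p = 0.000719) and -1.70 for Taf7l (SE 0.20, adjusted p = 0.000691). Of 8 tested genes, 4 were called higher, against 13.5% of all tested genes, and 1 lower, against 25.5%. The 4 include Fhl5, which passed the filter on low values only through the 30.5 dpp testes and could be called in no other direction, so 3 of 7 is the count without it. Brdt (log2 difference 0.68, adjusted p = 0.0398) missed the ratio of medians, and Mybl1 (0.06) and Crem (-0.59) overlapped between the ages. The median log2 difference was 1.02 over the 8 regulators and -0.39 over all genes, or -0.25 over all genes after quantile normalization.

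After 30.5 dpp few steps passed both thresholds. From 30.5 to 36.5 dpp limma called 0 of 8 genes, against 6.33% of all genes called higher and 1.20% called lower. At an unadjusted p under 0.05, 1 was higher (Papolb, log2 difference 0.36) and 2 were lower (Tbpl1, -0.36, and Mybl1, -0.53). Without 30.5 dpp replicate 2 the count was 1 (Fhl5, log2 difference 2.12, adjusted p = 0.00505). From 30.5 to 53.5 dpp, a pair of ages that was not tested, Mybl1 went from 29.7 to 13.7 FPKM and Taf7l from 30.0 to 14.6 FPKM on average, both with no overlap. From 36.5 to 53.5 dpp 1 of 8 genes was called higher, Fhl5, against 2.88% of all genes, and limma called 0 lower, against 4.98%, with 2 lower at an unadjusted p under 0.05. Its mean went from 17.8 ± 1.41 to 57.9 ± 37.7 FPKM (SD, n = 3), 3.25 times as high (log2 difference 1.47, SE 0.39, adjusted p = 0.0217). This call was lost without 36.5 dpp replicate 1 (adjusted p = 0.0567), replicate 2 (0.0589) or replicate 3 (0.0571), and without 53.5 dpp replicate 3, where the log2 difference was 0.98 and the ratio of medians fell under the threshold. Taf7l and Mybl1 were lower at the older age (log2 differences -0.71 and -0.54, adjusted p = 0.00427 and 0.0185), short of the ratio of medians. The median over all genes was -0.30, or -0.06 after quantile normalization, and -0.17 over the 8 regulators.

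After 6 days of culture all D6 values of Tbpl1, Brdt, Rfx2, Mybl1 and Papolb lay below both 14.5 dpp testes, and those of Crem and Taf7l overlapped with them. Crem had 6.73 ± 0.441 FPKM at D6 (SD, n = 3) and 6.49 ± 0.437 FPKM at 14.5 dpp (n = 2), and Taf7l had 31.1 ± 4.45 and 50.5 ± 26.6 FPKM. The median log2 difference was -0.48 over the 7 regulators and -0.04 over all genes. Of 7 genes tested, 1 was called lower in culture, Brdt (log2 difference -0.78, SE 0.18, adjusted p = 0.0386), against 2.37% of all tested genes. Another 2, Papolb and Tbpl1, were lower at an unadjusted p under 0.05 (log2 differences -0.68 and -0.48, adjusted p = 0.0467 and 0.0604), with ratios of medians under 2. Limma called 0 genes higher, against 5.57% of all genes, and 0 were higher at an unadjusted p under 0.05. The call of Brdt was lost without 14.5 dpp replicate 2 (adjusted p = 0.0901), D6 replicate 1 (0.121), D6 replicate 2 (0.103) or D6 replicate 3 (0.1), and without 14.5 dpp replicate 1 Taf7l was called as well (log2 difference -1.14, adjusted p = 0.0377), for a count of 2. The early meiotic markers summed to 16.7 ± 6.47 FPKM at D6 and to 14.7 and 73.9 FPKM in the 14.5 dpp testes, and their part in the difference was not tested. All 6 Leydig cell markers were called lower at D6 (1 of them was under the filter there and could only be called lower). Their sum was 15.8 ± 3.57 FPKM, against 225 ± 114 FPKM at 14.5 dpp. Macrophage markers summed to 60.6 ± 6.83 FPKM at D6 and 26.1 ± 0.993 FPKM at 14.5 dpp. Endothelial markers summed to 67.0 ± 4.47 and 28.3 ± 4.52 FPKM. The part of these cells in the difference was not tested.

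At D16, matched to 24.5 dpp, every tested regulator was lower in culture. The mean of Brdt was 1.05 ± 0.260 FPKM against 102 ± 32.1 FPKM in the testes (96.4 times as high in vivo), and that of Rfx2 0.918 ± 0.0203 against 45.1 ± 10.4 FPKM (49.2 times; SD, n = 3). Papolb was 20.7 times as high in vivo, Mybl1 6.16 times, Tbpl1 4.00 times, Taf7l 3.22 times and Crem 2.31 times. The log2 differences were -5.60 for Brdt (SE 0.25, adjusted p = 7.97e-06), -4.56 for Rfx2 (SE 0.17), -3.86 for Papolb (SE 0.15), -2.39 for Mybl1 (SE 0.11), -1.95 for Tbpl1 (SE 0.16), -1.63 for Taf7l (SE 0.17, adjusted p = 0.000197) and -1.05 for Crem (SE 0.19, adjusted p = 0.00226). All 7 tested genes were called lower and 0 higher (limma, with 0 higher at an unadjusted p under 0.05), against 18.3% of all genes called lower and 25.3% called higher. Of these 7, Crem missed the threshold when all 10 groups were fitted together (adjusted p = 0.192). The median log2 difference was -2.39 over the 7 regulators and 0.12 over all genes.

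At D22 and D28 the gap to the testis was wider than at D16 for Papolb, Rfx2 and Tbpl1, both as log2 difference and as ratio of means. For Brdt the log2 difference was larger at both times than at D16 (-5.60), and the ratio of means at D22 only. Papolb had 2.55 ± 0.438 FPKM at D22 against 299 ± 37.7 FPKM at 30.5 dpp, and 2.51 ± 0.283 FPKM at D28 against 383 ± 27.4 FPKM at 36.5 dpp (SD, n = 3). It was 117 and 153 times as high in vivo, Rfx2 105 and 115 times, Brdt 101 and 89.3 times, Tbpl1 11.6 and 8.96 times and Mybl1 6.77 and 5.95 times. At both times Fhl5 was listed at 0 in every cultured library and was above 0 in every testis (lowest 2.27 FPKM at 30.5 dpp and 16.2 FPKM at 36.5 dpp). The log2 differences at D22 were -6.40 for Papolb (SE 0.14), -5.95 for Brdt (SE 0.09), -5.80 for Rfx2 (SE 0.12), -3.49 for Tbpl1 (SE 0.14) and -2.52 for Mybl1 (SE 0.11). At D28 they were -6.77 for Papolb (SE 0.11), -5.93 for Rfx2 (SE 0.10), -5.85 for Brdt (SE 0.14), -3.11 for Tbpl1 (SE 0.11) and -2.29 for Mybl1 (SE 0.17, adjusted p = 9.62e-06). At D22 6 of 8 genes were called lower, against 22.9% of all genes, and at D28 6 of 8, against 23.6%. Fhl5 passed the filter only through the testes and could be called in no other direction, so the count without it is 5 of 7 at both times. Limma called 0 regulators higher at either time, where 42.1% and 46.7% of all genes were, with 0 higher at D22 and 1 (Taf7l) at D28 at an unadjusted p under 0.05.

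Taf7l and Crem were not called in these comparisons. Taf7l had 33.2 ± 4.70 FPKM at D22 against 30.0 ± 4.27 FPKM at 30.5 dpp (log2 difference 0.14, adjusted p = 0.402) and 29.7 ± 1.18 FPKM at D28 against 24.4 ± 1.75 FPKM at 36.5 dpp (0.27, SE 0.10, adjusted p = 0.0351, short of the ratio of medians). Crem had 4.80 ± 0.468 FPKM at D22 and 4.05 ± 0.503 FPKM at D28 against 11.8 ± 12.7 and 9.06 ± 6.78 FPKM in the testes (SD, n = 3). The adjusted p of Crem was 0.569 and 0.416, with testes on both sides of the cultured values. This rests on 1 testis of each age. Without 30.5 dpp replicate 3 (1.20 FPKM) Crem was called lower at D22 (limma, log2 difference -1.46, adjusted p = 0.0183). Without 36.5 dpp replicate 2 (1.29 FPKM) it was called lower at D28 (-1.47, adjusted p = 0.000151). The counts were then 7, which include Fhl5, a gene that could be called in no other direction. The median gene was higher in culture, by 0.51 at D22 and by 0.64 at D28 on the log2 scale, or by 0.35 and 0.41 after quantile normalization. Relative to these medians, Taf7l lay below the median gene at both times. The medians of the 8 regulators were -3.23 and -3.67.

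**Figure D3:**
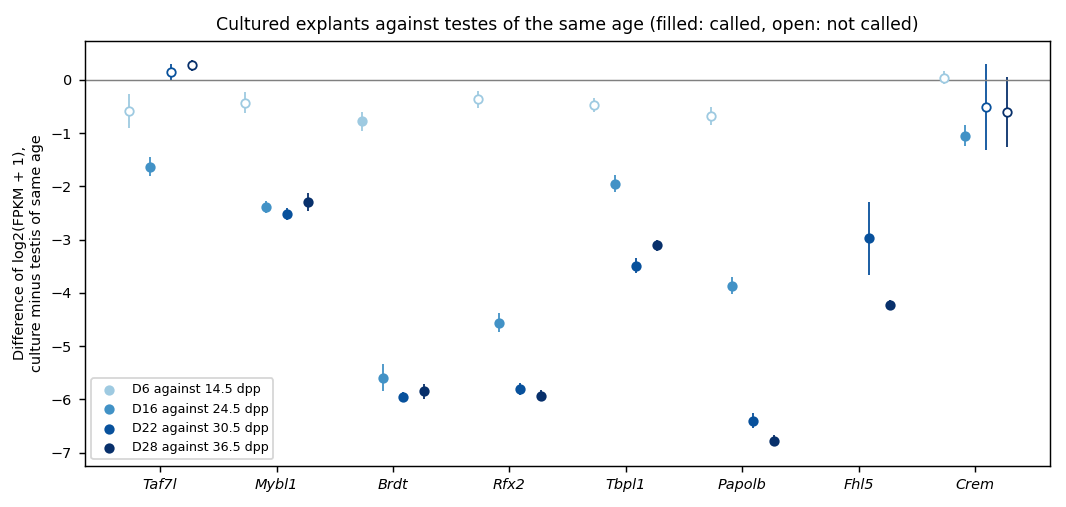
Difference of log2(FPKM + 1) between cultured explants and testes of the same age for each regulator, at the 4 matched ages, with bars of 1 standard error; filled points were called and open points were not. Papolb goes from -3.86 at D16 to -6.77 at D28, while Taf7l goes from -1.63 to 0.27.

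The explants were taken at 8.5 dpp, so the testes of that age show the tissue at the start. Comparisons of the 4 culture times with 8.5 dpp share those 3 testes, and their values stand side by side here. Taf7l was the only regulator called higher at all 4 times, with 10.9 ± 0.323 FPKM at 8.5 dpp and 31.1 ± 4.45 FPKM at D6, 31.4 ± 2.27 FPKM at D16, 33.2 ± 4.70 FPKM at D22 and 29.7 ± 1.18 FPKM at D28 (SD, n = 3). Its log2 differences were 1.42 (SE 0.11, adjusted p = 0.000125), 1.44 (SE 0.07), 1.51 (SE 0.11) and 1.36 (SE 0.09). The early meiotic markers were higher as well, with a sum of 6.41 FPKM at 8.5 dpp and 16.7 (D6) to 38.8 FPKM (D22) on average in culture. Their part in the level of Taf7l was not tested. In limma Brdt was called higher at D22 (0.52, SE 0.10, adjusted p = 0.00349) and at D28 (0.62, SE 0.14, adjusted p = 0.00912), with 1.57 ± 0.0820 and 1.78 ± 0.397 FPKM against 0.805 ± 0.209 FPKM. Genes of elongating spermatids were listed at up to 2.62 FPKM (Tnp1, D22) and 1.74 FPKM (Odf1, D28) in these tissues. The part of stray reads in the level of Brdt was not tested. Crem was called lower at D28 (-1.04, SE 0.11, adjusted p = 0.000328), and its differences at the 3 earlier times were -0.42, -0.79 and -0.84.

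Of 7 genes tested, the count called higher than at 8.5 dpp was 1 at D6 (9.89% of all genes), 1 at D16 (12.4%), 2 at D22 (13.5%) and 2 at D28 (13.2%). Called lower were 0 at D6 (6.39% of all genes), 0 at D16 (10.0%), 0 at D22 (10.2%) and 1 at D28 (10.5%), and limma gave 1 lower, Crem, at an unadjusted p under 0.05 at each of the 3 earlier times. Tbpl1, Rfx2, Mybl1 and Papolb were not called at any time. Brdt lost its ratio of medians without 8.5 dpp replicate 2 (log2 difference 0.45 at D22 and 0.55 at D28) or replicate 3 (0.50 and 0.60), and without replicate 2 the D22 count was 1. Leaving out a testis of 8.5 dpp also added calls of lower levels. Crem was called lower at D16 without replicate 1 (log2 difference -0.80) or replicate 2 (-0.82). Without replicate 3 Fhl5 entered the test at all 4 times, but only through the 8.5 dpp testes, so it could be called lower and in no other direction, and its 4 calls are not counted here. The call of Crem at D28 was lost when all 10 groups were fitted together (adjusted p = 0.220).

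Against 14.5 dpp, the age at which the explants would enter meiosis in vivo, the later cultures were level or lower. D16, D22 and D28 were compared with the same 2 testes in 1 fit, by an F test. At D16 3 of 7 genes were called lower, against 5.35% of all genes: Papolb (2.30 ± 0.218 against 4.83 ± 0.700 FPKM, log2 difference -0.82, SE 0.13), Brdt (-0.74, SE 0.18) and Rfx2 (-0.58, SE 0.13). At D22 limma called 0 genes (5.51% of all genes were called lower), and at D28 it called 0 (6.00%), although 5 of 7 were lower at an unadjusted p under 0.05 at each time (the F test gives 1 p for all 3 times) and 0 were higher. Papolb was -0.72 and -0.73 there, Tbpl1 -0.75 and -0.73, Rfx2 -0.45 and -0.44, Brdt -0.41 and -0.31, and Crem -0.37 and -0.57. At all 3 times 0 genes were called higher, where 6.56% (D16), 7.34% (D22) and 7.63% (D28) of all genes were.

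These counts rest on single libraries. Without 14.5 dpp replicate 2, 0 genes were called at D16 (adjusted p = 0.0943 for Brdt, 0.205 for Rfx2 and 0.0528 for Papolb), and without D16 replicate 1, 2 or 3 the count was 1. The adjusted p of Brdt at D16 was then 0.118, 0.0647 and 0.0788, and that of Rfx2 0.0657, 0.0672 and 0.0683. Without 14.5 dpp replicate 1 the count was 3 at D22 and 3 at D28, without D22 replicate 3 it was 1 at D22, and without D28 replicate 2 it was 1 at D28. With no filter on low values Brdt missed the threshold at D16 (adjusted p = 0.0557).

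Within culture, from D6 to D28, the set moved little. Crem went from 6.73 ± 0.441 to 4.05 ± 0.503 FPKM (log2 difference -0.62, SE 0.11, adjusted p = 0.0172, short of the ratio of medians) and Brdt from 0.992 ± 0.0424 to 1.78 ± 0.397 FPKM (0.47, SE 0.12, adjusted p = 0.053; SD, n = 3). Limma called 0 of 7 genes, against 2.51% of all genes called higher and 2.19% called lower, and Brdt and Crem were the 1 higher and the 1 lower at an unadjusted p under 0.05. The other 5 differed by -0.25 (Tbpl1), -0.07 (Rfx2), 0.01 (Mybl1), -0.06 (Taf7l) and -0.05 (Papolb). As a share of the highest in vivo mean, D28 tissue held 34.3% for Crem, 29.4% for Taf7l, 11.5% for Mybl1, 8.70% for Tbpl1, 1.09% for Brdt, 0.872% for Rfx2 and 0.655% for Papolb.

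For 6 regulators all 12 cultured libraries lay below all 9 testes of 30.5 to 53.5 dpp. The share of all genes separated in this way was not counted, so the count has no background beside it. Of all tested genes, 22.9% were called lower at D22 and 23.6% at D28. Fhl5, 1 of the 6, was listed at 0 at D16, D22 and D28. The lowest of the 9 testes was 78.7 times the highest cultured library for Papolb (259 and 3.29 FPKM), 78.4 times for Rfx2, 64.2 times for Brdt and 11.4 times for Fhl5. It was 5.25 times for Tbpl1 and 2.28 times for Mybl1. Genes of elongating spermatids, which are not present in young testes, show how low values read there. Tnp1 was listed at up to 2.85 FPKM at 8.5 dpp, 13.1 FPKM at 14.5 dpp and 3.27 FPKM at D6, and at 0 in all 24.5 dpp testes, where Odf1 was at 2.49 to 3.16 FPKM, Tnp2 at 1.21 to 2.16 FPKM and Smcp at 1.39 to 1.66 FPKM. Values of Brdt, Rfx2 and Papolb at 8.5 dpp, 14.5 dpp and D6 are of a similar size, and those of Fhl5 were at most 0.534 FPKM. At D16 Tnp1 was at most 0.236 FPKM and Odf1 at most 0.211 FPKM, and Tnp2 and Smcp were listed at 0. Papolb was at 2.09 to 2.52 FPKM there, Brdt at 0.759 to 1.24 FPKM and Rfx2 at 0.895 to 0.935 FPKM. In later cultures the spermatid genes were listed higher again. At D22 Tnp1 reached 2.62 FPKM, Odf1 2.56 FPKM and Tnp2 1.45 FPKM. At D28 Odf1 reached 1.74 FPKM and Smcp 1.68 FPKM, with Tnp1 listed at 0. Brdt was of a similar size, at 1.49 to 1.65 FPKM at D22 and 1.45 to 2.22 FPKM at D28. Whether such low values stem from stray reads was not tested.

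The widely expressed relatives of the regulators took different courses, and some moved as the regulators did. Tbp went from 15.8 ± 2.94 FPKM at 8.5 dpp to 73.3 ± 5.05 FPKM at 30.5 dpp and was at 11.9 ± 0.833 FPKM at D28 (SD, n = 3). Brd3, a relative of Brdt, was at 37.9 ± 1.87 FPKM at 8.5 dpp, 125 ± 3.29 FPKM at 36.5 dpp and 34.5 ± 3.29 FPKM at D28 (SD, n = 3). The ratio of Brdt to Brd3 went from 0.0211 ± 0.00439 at 8.5 dpp to 2.20 ± 0.674 at 24.5 dpp, was 1.31 ± 0.0614 at 53.5 dpp, and was 0.0237 to 0.0522 on average in culture. Papola, the general poly(A) polymerase, was at 63.1 ± 9.41 FPKM at 24.5 dpp, 27.6 ± 6.00 FPKM at 36.5 dpp and 87.1 ± 16.4 FPKM at D28. The ratio of Papolb to Papola went from 0.0349 ± 0.00381 at 8.5 dpp through 0.774 ± 0.221 at 24.5 dpp to 17.3 ± 2.18 at 53.5 dpp and was 0.0235 to 0.0379 in culture. The ratio of Mybl1 to Mybl2, a cell cycle gene, was 0.191 ± 0.00946 at 8.5 dpp, 6.04 ± 2.34 at 24.5 dpp and 22.8 ± 9.87 at 53.5 dpp, and 0.319 to 0.715 in culture. Mybl2 itself was at 17.1 ± 0.661 FPKM at 8.5 dpp, 5.09 ± 1.45 FPKM at 24.5 dpp and 0.647 ± 0.157 FPKM at 53.5 dpp. Mybl1 also went down between 24.5 dpp (28.5 FPKM) and 53.5 dpp (13.7 FPKM), while the ratio rose.

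Rfx2 passed Rfx1 between 14.5 and 24.5 dpp, and their ratio was highest at 30.5 dpp (10.8 ± 1.78), lower at 53.5 dpp (5.59 ± 1.54) and 0.106 to 0.164 in culture. The ratio of Taf7l to Taf7 was 0.262 ± 0.0107 at 8.5 dpp, 2.22 ± 0.381 at 24.5 dpp and 1.58 ± 0.0607 at 53.5 dpp, and 0.717 to 0.824 in culture. Tbpl1 was above Tbp in every group, by 1.81 ± 0.485 times at 8.5 dpp, 3.63 ± 0.339 times at 30.5 dpp and 1.81 to 2.12 times in culture (SD, n = 3).

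**Figure D4:**
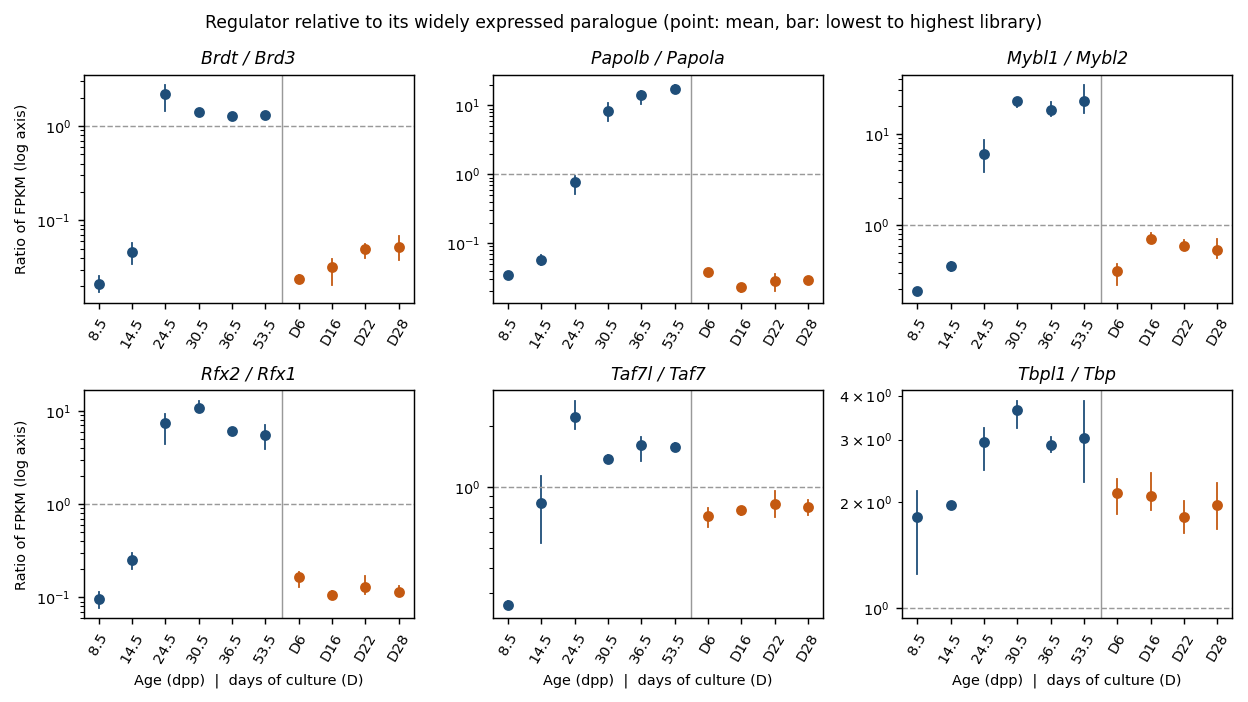
Ratio of the FPKM of 6 regulators to that of a widely expressed relative (log axis), by in vivo age in dpp and days of culture. Points are group means, bars run from the lowest to the highest library, and ratios of Brdt, Rfx2, Mybl1, Papolb and Taf7l pass 1 in vivo and stay under 1 in all cultures.

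Of 18 relatives listed, 17 were in the table (Myb was not) and 16 were tested. At D16 2 were called higher than at 24.5 dpp (Fhl2 and Fhl3), where 25.3% of all genes were called higher, and 2 were called lower (Fhl4 and Tbp), where 18.3% were. At D22 5 were called higher than at 30.5 dpp (4 of 15 without Fhl2, which was listed at 0 in those testes and could only be called higher), where 42.1% of all genes were, and 4 lower (Fhl4, Tbp, Brd3 and Rfx3), where 22.9% were. At D28 6 were called higher than at 36.5 dpp, where 46.7% of all genes were, and 6 lower, where 23.6% were. Those higher at D28 were Fhl1, Fhl2, Fhl3, Mybl2, Taf7 and Papola, and those lower were Creb1, Fhl4, Tbp, Brd3, Rfx1 and Rfx3. Fhl4, a testis LIM protein gene in the family of Fhl5, resembled the regulators: it was at 6.78 ± 0.455 FPKM at 8.5 dpp, 231 ± 77.2 FPKM at 24.5 dpp, 1100 ± 101 FPKM at 30.5 dpp and 1577 ± 103 FPKM at 53.5 dpp, and at 2.97 to 3.89 FPKM on average in culture. Rfx3 was at 14.1 ± 0.704 FPKM at 36.5 dpp against 0.831 ± 0.115 FPKM at D28 (17.0 times, log2 difference -3.05, SE 0.10). Brd2 was listed at 0 in every library, although it is widely expressed, so its row was not used.

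Among other general factors with a testis role, Gtf2a1l, the germ cell form of a subunit of TFIIA, which binds TBP and TBPL1, went along with the set. It was at 0.358 ± 0.254 FPKM at 14.5 dpp (SD, n = 2), 43.7 ± 11.8 FPKM at 24.5 dpp and 228 ± 13.7 FPKM at 36.5 dpp, and at 0.196 to 0.326 FPKM on average in culture (n = 3). Taf9 went from 86.2 ± 1.07 to 600 ± 136 FPKM between 14.5 and 24.5 dpp and reached 968 ± 3.85 FPKM at 30.5 dpp, with 73.6 to 86.5 FPKM in culture. Taf1, a core TFIID subunit, was at 2.87 ± 0.236 FPKM at 36.5 dpp and 11.8 ± 2.91 FPKM at D28. Of 9 such factors listed, 7 were in the table and 5 were tested at D28, of which 1 was called higher (Taf1), where 46.7% of all genes were, and 2 lower (Gtf2a1l and Taf9), where 23.6% were. Gtf2a1l was under the filter on low values at D28 and could only be called lower, so without it 1 of 4 was higher and 1 lower. Tbpl2 and Gtf2a2 were listed at 0 in every library, and Taf4 and Taf4b had no row. Gtf2a2 is widely expressed, so its row was not used.

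Genes known to depend on CREM and FHL5 were at high levels only after 24.5 dpp. Of 9 listed, 8 were in the table (Kif17 was not). Their summed level was 6.72 ± 0.907 FPKM at 24.5 dpp, 1074 ± 742 FPKM at 30.5 dpp, 7502 ± 1378 FPKM at 36.5 dpp and 30450 ± 3936 FPKM at 53.5 dpp (SD, n = 3), with Odf1 and then Tnp1 the most abundant. Tnp1, a nuclear protein of elongating spermatids, had 222 ± 179 FPKM at 30.5 dpp and 9208 ± 2091 FPKM at 53.5 dpp. All 8 were called higher from 30.5 to 36.5 dpp and from 36.5 to 53.5 dpp, against 6.33% and 2.88% of all genes. Counts of calls are not given for the step from 24.5 dpp or for culture, where several of them were near 0 and only 1 direction was possible. In culture the sum was 0.399 to 4.64 FPKM on average, and Prm1 was listed at 0 in every cultured library, as it was in all testes of 8.5 to 24.5 dpp. From testis to testis its order differed between ages: at 30.5 dpp it was 490 FPKM in replicate 1 (Crem 25.8 FPKM, Fhl5 2.27 FPKM), 1908 FPKM in replicate 2 (8.42 and 25.0 FPKM) and 824 FPKM in replicate 3 (1.20 and 4.74 FPKM). At 36.5 dpp the sum was 8435 FPKM in replicate 1 (Crem 13.8 FPKM, Fhl5 18.8 FPKM), 8153 FPKM in replicate 2 (1.29 and 18.4 FPKM) and 5920 FPKM in replicate 3 (12.1 and 16.2 FPKM). At 53.5 dpp it was 31783 FPKM in replicate 1 (8.15 and 31.8 FPKM), 33547 FPKM in replicate 2 (15.3 and 40.7 FPKM) and 26021 FPKM in replicate 3 (0.754 and 101 FPKM). The order of the sums was that of Fhl5 at 30.5 and 36.5 dpp and that of Crem at 53.5 dpp, with 3 testes each and no test.

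Genes that depend on MYBL1 followed Mybl1 at the step to 24.5 dpp, but not at every step. From 8.5 to 14.5 dpp, where Mybl1 was not called, Tdrd1 went from 3.62 ± 0.218 FPKM (SD, n = 3) to 13.3 ± 1.90 FPKM (n = 2). Tdrd5 was at 16.2 ± 2.27 and 19.5 ± 0.625 FPKM at these ages. In culture Tdrd1 was at 6.39 to 7.37 FPKM on average. Of 8 listed, 5 were in the table. Tdrd6 at 14.5 dpp and in culture, and Piwil1 at D16, were under the filter on low values and could be called in 1 direction only, so they are left out of the counts there. All 4 others were called higher from 14.5 to 24.5 dpp, against 14.6% of all genes. Piwil1, which codes for the PIWI protein of pachytene piRNAs, went from 0.964 ± 0.583 FPKM (SD, n = 2) to 229 ± 68.1 FPKM (n = 3), and Tdrd6 from 0.403 ± 0.0814 to 95.9 ± 31.0 FPKM. Tdrd1 went from 13.3 ± 1.90 to 148 ± 29.9 FPKM and Tdrd5 from 19.5 ± 0.625 to 64.6 ± 11.1 FPKM. The summed level of the 5 was 36.8 ± 4.36, 549 ± 140 and 840 ± 21.0 FPKM at 14.5, 24.5 and 30.5 dpp and 20.5 to 27.1 FPKM on average in culture. Of the 5, only Tdrd6 had a higher mean at 30.5 dpp (467 ± 54.5 FPKM) than at 24.5 dpp. The means of Piwil1 (199 FPKM), Tdrd1 (115 FPKM), Tdrd5 (52.6 FPKM) and Rnf17 (6.48 FPKM, from 11.4 FPKM) were lower at 30.5 dpp. Called lower than in the testis of the same age were 3 of 3 at D16 (18.3% of all genes), 4 of 4 at D22 (22.9%) and 3 of 4 at D28 (23.6%). The exception was Tdrd5 (17.6 ± 3.83 FPKM at D28 and 31.9 ± 4.68 FPKM at 36.5 dpp), which missed the ratio of medians.

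Genes that RFX factors control are known from the flagellum, and the list held 9 of these and H1f6, the gene of a testis linker histone. All 10 were in the table. Tekt1, a gene for a filament protein of the axoneme, was at 1.19 ± 0.974 FPKM at 14.5 dpp (SD, n = 2), 79.2 ± 27.0 FPKM at 24.5 dpp and 330 ± 47.0 FPKM at 36.5 dpp (n = 3), and at 0.977 to 2.03 FPKM on average in culture. Tekt2 was at 222 ± 26.2 FPKM at 36.5 dpp and listed at 0 in all 12 cultured libraries. The sum of the 10 was 234 ± 74.0 FPKM at 24.5 dpp, 1043 ± 77.3 FPKM at 36.5 dpp and 2.89 to 3.96 FPKM in culture. The genes differed: Ift172 was level between 24.5 dpp (7.65 ± 1.34 FPKM) and 30.5 dpp (8.04 ± 0.697 FPKM), and Rsph1 was listed at 0 in all testes of 53.5 dpp. Most of the list was near 0 at 14.5 dpp and in culture and passed the filter on low values only through the older testes, so counts of calls are not given for it.

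**Figure D5:**
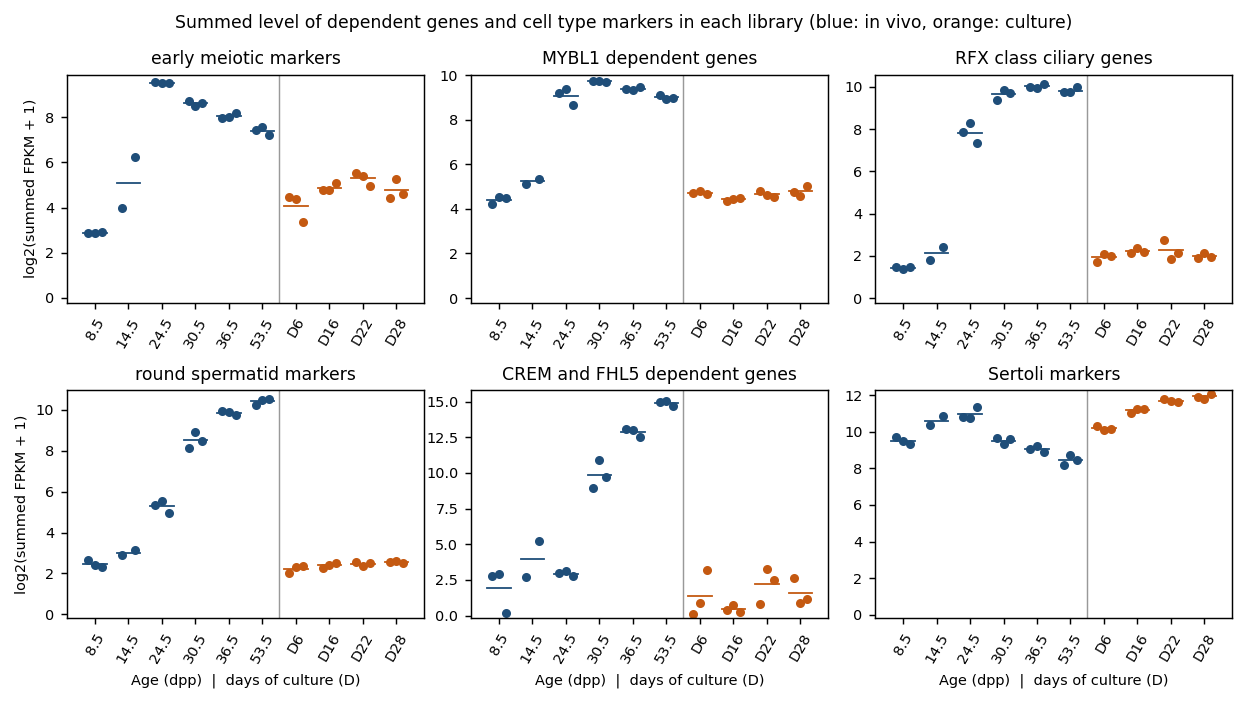
Summed level, as log2(summed FPKM + 1), of the genes that depend on CREM and FHL5 or on MYBL1, of the genes of the RFX class and of early meiotic, round spermatid and Sertoli markers, in every library, by in vivo age in dpp (blue) and days of culture (orange). The CREM and FHL5 list rises from 6.72 FPKM at 24.5 dpp to 30450 FPKM at 53.5 dpp on average, and the Sertoli sum goes from 732 FPKM at 8.5 dpp to 3919 FPKM at D28, of which Clu is 2999 FPKM.

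Sums of markers of germ cell stages stand here beside the levels of the regulators. The pachytene markers (5 of 6 in the table, Hspa2 the most abundant, and Piwil1 shared with the MYBL1 list) summed to 28.8 ± 3.52 FPKM at 14.5 dpp (SD, n = 2), 1558 ± 373 FPKM at 24.5 dpp and 2906 ± 153 FPKM at 30.5 dpp (n = 3), and to 17.4 to 20.8 FPKM on average in culture, with Ldhc listed at 0 at D16 and D22. The round spermatid markers (5 of 6 in the table, Acr and later Tssk2 the most abundant in older testes) summed to 38.6 ± 7.50 FPKM at 24.5 dpp, 376 ± 105 FPKM at 30.5 dpp and 1381 ± 150 FPKM at 53.5 dpp, and to 3.69 to 4.91 FPKM in culture, where Acrv1 was listed at 0 at D6, D16 and D28. The early meiotic markers (5 of 6, Sycp3 the most abundant from 14.5 dpp on) summed to 6.41 ± 0.0728 FPKM at 8.5 dpp, 731 ± 13.2 FPKM at 24.5 dpp and 168 ± 20.4 FPKM at 53.5 dpp, and to 16.7 ± 6.47 FPKM at D6, 28.6 ± 3.97 FPKM at D16, 38.8 ± 7.70 FPKM at D22 and 27.1 ± 9.47 FPKM at D28. Taf7l and Mybl1 were lower in the oldest testes, as these early meiotic markers were.

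Markers of somatic cells went in different directions. The Sertoli cell markers (6 of 6, Clu the most abundant) summed to 536 ± 69.0 FPKM at 36.5 dpp and 3919 ± 350 FPKM at D28 (SD, n = 3), and all 6 were called higher at D28, against 46.7% of all genes. Clu alone had 441 FPKM at 36.5 dpp and 2999 FPKM at D28. Against 8.5 dpp (732 ± 91.9 FPKM), 2 of the 6 were called higher and 1 lower at D28, where 13.2% and 10.5% of all genes were. The Leydig cell markers (6 of 6) summed to 283 ± 82.9 FPKM at 36.5 dpp and 28.96 ± 6.84 FPKM at D28. Of these, 4 of 6 were called lower than at 36.5 dpp, against 23.6% of all genes, and of 4 peritubular markers 0 were called. At 8.5 dpp the Leydig sum was 271 ± 52.2 FPKM. All 4 peritubular markers were called lower at D28 than at 8.5 dpp, where 10.5% of all genes were. Their sum went from 675 ± 25.8 to 102 ± 20.7 FPKM. Macrophage markers summed to 12.8 ± 2.99 FPKM at 36.5 dpp and 69.6 ± 29.7 FPKM at D28. Of these, 4 of 5 were called higher and 1 lower, where 46.7% and 23.6% of all genes were. Cd163, a macrophage marker, was listed at 0 in every D28 library and could not be called higher there. Endothelial markers summed to 4.41 ± 1.65 and 58.7 ± 12.3 FPKM. Of these, 3 of 5 were called higher, or 2 of 3 without the 2 under the filter at 36.5 dpp, where 46.7% of all genes were. The spermatogonia markers (5 of 6, Uchl1 the most abundant) summed to 54.2 ± 4.66 FPKM at 36.5 dpp, 209 ± 7.22 FPKM at 8.5 dpp and 300 ± 20.3 FPKM at D28. The part of the share of each cell type in the levels of the regulators was not tested.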

How the data were processed

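The authors sequenced mRNA from testis tissue, aligned the reads to the rat genome with STAR 2.5.2a and deposited 1 FPKM value per gene and library. Members were matched by Entrez identifier in the 29 libraries with values. Groups were compared with limma 3.58.1 (lmFit and eBayes) in R 4.3.3 on log2(FPKM + 1), keeping genes whose median reached 0.5 FPKM in a compared group, with Benjamini-Hochberg adjustment over all of them (11033 to 12210 genes per comparison). D16, D22 and D28 were compared with 14.5 dpp in a joint fit of these 4 groups with an F test, while the remaining comparisons were fitted 2 groups at a time. Same-numbered libraries were not treated as pairs: their deviations from the group means gave correlations of -0.131 to 0.218 over 45 pairs of libraries. Members and gene lists were chosen with earlier results of these data known. Members and their relatives were named freely, and up to 4 examples of every other list were to be taken by highest in vivo mean. Taf1, Tnp2, Ift172, Rsph1, H1f6, Ldhc, Acr and Acrv1 were named outside that rule, after their values were seen. For each member, the 3 most similar genes were found with Pearson's r over the 10 groups. Relative depth ranged from 0.818 to 1.49, and read counts were not available. Promoter windows came from RefSeq (GRCr8). Alternatives changed the pseudocount (0.1), the filter, the fold threshold, the prior variance, the normalization, the groups in the fit, a replicate block and the scale of the shares, and left out each library in turn. The code was tested on simulated data. The 14.5 dpp library listed at 0 for all genes was left out. Tables and figures were made with Python 3.11.15, numpy 2.4.6, pandas 2.3.3 and matplotlib 3.10.9.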

Additional observations from a re-analysis of the deposited data

Results flagged for a closer look

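The change from D6 to D28 in culture was compared with the change from 14.5 to 36.5 dpp in vivo by an interaction term in limma, a comparison chosen after seeing the data. The change in culture minus that in vivo, on the log2 scale, was -6.09 for Papolb (SE 0.19), -5.56 for Rfx2 (SE 0.17), -5.07 for Brdt (SE 0.23), -4.20 for Fhl5 (SE 0.18), -2.64 for Tbpl1 (SE 0.16) and -1.86 for Mybl1 (SE 0.28, adjusted p = 0.00014). For Taf7l it was 0.86 (SE 0.35, adjusted p = 0.0431), with a change of -0.92 in vivo and -0.06 in culture, and for Crem it was -0.64 (SE 0.84, adjusted p = 0.499). Fhl5 was listed at 0 at D28, so its value depends on the pseudocount and was -7.48 with a pseudocount of 0.1. Among the groups compared, only the 36.5 dpp testes had a median of Fhl5 above 0.5 FPKM. Of 12482 genes tested, 9544 (76.5%) passed an adjusted p of 0.05, so such a difference was the rule among all genes. The value of Taf7l was 0.31 without 14.5 dpp replicate 2 (adjusted p = 0.179). It missed the threshold in 9 of 11 fits that left out 1 library, with a pseudocount of 0.1 (adjusted p = 0.053) and after quantile normalization (0.0731). The causes of these differences were not tested.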

How the results depend on the processing

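Log2 differences of called genes kept their direction and their call in 310 of 318 alternatives other than leaving out each library in turn, and missed the call in 8. No value turned its direction. With libraries left out, 231 kept the call and 26 missed it. Without the fold threshold, more genes were called: 7 from 8.5 to 14.5 dpp, 7 from 14.5 to 24.5 dpp, 6 from 24.5 to 30.5 dpp, 2 from 30.5 to 36.5 dpp, 3 from 36.5 to 53.5 dpp, 2 at D6 against 14.5 dpp, 3 at D6, 3 at D16 and 4 at D22 against 8.5 dpp, 5 at D16, 5 at D22 and 5 at D28 against 14.5 dpp, 7 at D28 against 36.5 dpp, and 1 from D6 to D28. This alternative is looser by construction. With replicate number as a block, for pairing of same-numbered libraries, 2 genes were called from 8.5 to 14.5 dpp and 0 at D6 against 14.5 dpp. Rfx2 lost its call at D16 against 14.5 dpp (limma, adjusted p = 0.0781). In the first 2 comparisons replicate 3 had no partner at 14.5 dpp. The log2 differences were those of the fits without it (Brdt 0.91 and Rfx2 0.65 from 8.5 to 14.5 dpp, and Brdt -0.80 at D6). Pairing and the loss of that library were therefore not separated. With all 10 groups in 1 fit, 1 gene was called from 30.5 to 36.5 dpp. With no filter on low values, 0 were called at D6 against 14.5 dpp, 2 at D6 and 2 at D16 against 8.5 dpp. Apart from the looser fold rule, the cause was not tested. Leaving out each library in turn, the count ranged from 2 to 4 (8.5 to 14.5 dpp), 5 to 6 (14.5 to 24.5 dpp), 0 to 1 (30.5 to 36.5 dpp and 36.5 to 53.5 dpp), 0 to 2 (D6 against 14.5 dpp), 6 to 7 (D22 against 30.5 dpp and D28 against 36.5 dpp), 1 to 2 (D6, D16 and D22 against 8.5 dpp), 2 to 3 (D28 against 8.5 dpp), 0 to 4 (D16 against 14.5 dpp) and 0 to 3 (D22 and D28 against 14.5 dpp), and stayed at 5 (24.5 to 30.5 dpp), 7 (D16 against 24.5 dpp) and 0 (D6 to D28). The counts in this section include Fhl5 from 24.5 to 30.5 dpp and at D22 and D28 against the matched testes. Fhl5 could be called in 1 direction only there. Against 8.5 dpp, Fhl5 was also a call gained at all 4 culture times without 8.5 dpp replicate 3. In these fits it was the only source of the 2 at D6, and it could be called lower only. Where 1 testis of 14.5 dpp remained, it was assumed to vary like the other group. Medians in place of means moved 6 of 32 shares of the highest level in culture by more than 1 SD, among them Taf7l at D28 (34.0%). Depth is unknown, so values under 1 FPKM cannot be given an interval.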
